A study of Mus musculus with 6 samples.

Results

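Integrin subunits and the proteins that tie them to actin were followed in bulk RNAseq of injured mouse left ventricle. The set held every gene whose symbol starts with Itga or Itgb, other than the binding and integrin-like proteins with similar symbols, plus a named list of focal adhesion proteins. This gave 45 of the 17556 genes in the table, with 18 α subunits, 9 β subunits and 18 focal adhesion proteins. The RNA came from 6 mice aged 6 to 10 weeks, all collected at 4 dpi after permanent ligation of the left anterior descending artery. All of these siblings carried floxed alleles of Yap (both alleles) and Wwtr1 (1 allele), and all were fed a tamoxifen citrate diet from the time of surgery. The 3 Cre-positive mice also had MerCreMer, a tamoxifen-inducible Cre, at the endogenous periostin (Postn) locus, whereas the 3 Cre-negative mice had wild type Postn. The design asks what differs in the ventricle when Cre can excise floxed Yap and Wwtr1 in cells that express periostin, which are chiefly myofibroblasts, although RNA was taken from the whole ventricle. Cre itself and the changed Postn locus were present in the same 3 mice, so their parts cannot be told apart from that of excision.

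Integrins are αβ heterodimers that span the cell membrane and bind extracellular matrix or receptors on other cells. The α subunit largely sets the ligand, so that α1, α2, α10 and α11 bind collagen with β1, α3, α6 and α7 bind laminin, and α5, α8 and αv bind ligands with an RGD motif such as fibronectin. Inside the cell, talin and kindlin bind the β tail and activate the receptor, the ILK-PINCH-parvin complex and adaptors assemble on it, and vinculin, α-actinin and filamin connect it to actin. Yap and Taz, the protein encoded by Wwtr1, are transcriptional cofactors that act through TEAD factors and respond to tension at such adhesions, and SRF, which binds CArG boxes, responds to actin.

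Some of these genes carry the letters of TEAD or CArG motifs close to an annotated start, which are shown here because the floxed genes act through TEAD. RefSeq promoter windows of GRCm38.p6, from 250 bases before to 50 bases after the start, were matched to 32 of the 45 members by gene and comprised 38 promoters. GGAATG, on either strand, was found in 5 of the 38 (13.2%) and in 12.4% of 14018 promoters of tested genes. The 5 belonged to Itga10 (collagen-binding α10), Actn4 (α-actinin-4), Itgb1 (β1), Vcl (vinculin) and Flna (filamin A). The Flna promoter window lay inside the gene (chromosome X, 74223461 to 74249854). The following 30-base windows run 5′ to 3′ along the gene, with GGAATG or its reverse complement in capitals.
Itga10, chr3:96645497-96645526, plus strand: caccaccactccCATTCCatccaactttat
Actn4, chr7:28962531-28962560, minus strand: tgaatgggaacaCATTCCaccccgaaacag
Itgb1, chr8:128685635-128685664, plus strand: acgcggcgcggaGGAATGcgtttccggagg
Vcl, chr14:20929243-20929272, plus strand: gcccctcccttgGGAATGggggcggggcgg
Flna, chrX:74246663-74246692, minus strand: ggcgttgtggggCATTCCaacgggaggggc

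CArG boxes were found in 3 of the 38 member promoters (7.89%) and in 1.29% of the 14018. They belonged to Vcl, Fermt2 (kindlin-2) and Itgb6 (β6). The Itgb6 box lay in a promoter window inside the gene (chromosome 2, 60598292 to 60722603), and the Itgb6 window at the 5′ end held none. Capitals mark the box.
Vcl, chr14:20929161-20929190, plus strand: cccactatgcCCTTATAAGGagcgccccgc
Fermt2, chr14:45530250-45530279, minus strand: tccttcatttCCATAAAAGGgcagcgctcc
Itgb6, chr2:60673724-60673753, minus strand: cacctgacttCCTTATAAGGtgaatgagga

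Vcl alone among the members held both, 143 and 227 bases before its start. AP-1 motifs (TGANTCA, both strands) were in 5 member promoters (13.2%, against 5.36% of all) and GC boxes (GGGCGG, both strands) in 21 (55.3%, against 60.3%). A match in such a window is a run of letters and was not tested as a binding site.

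The ventricles had from 13177888 to 14827579 estimated counts each. The library labelled Cre-negative replicate 1 stood apart from the other ventricles. It had the lowest value of the 6 for 26 of the 42 tested members (61.9%), against 32.1% of all genes, so values without it are given where they move a difference or a median by over 1.5 times. Summed TPM of 8 cardiomyocyte markers ran from 53897 to 64047 in Cre-negative and from 48433 to 52553 in Cre-positive ventricles. None of the 8 was at 0 in any ventricle. Atrial markers varied within both groups, with Myl7 (atrial myosin light chain) at 492, 306 and 61.1 TPM in Cre-negative and 611, 18.1 and 185 in Cre-positive ventricles, and all 4 were highest in Cre-positive replicate 1. The floxed genes themselves did not separate the groups, as Yap1 differed by 0.03 ± 0.09 and Wwtr1 by 0.05 ± 0.08 (log2 ± SE), or by 0.06 ± 0.08 and 0.07 ± 0.08 without that library. Postn, one allele of which holds the Cre, had 12157, 24639 and 26862 normalised counts in Cre-negative and 12682, 14240 and 13486 in Cre-positive ventricles, a difference of −0.66 ± 0.27 that was −0.94 ± 0.08 without the library labelled Cre-negative replicate 1. That ventricle lay below all 3 Cre-positive ones at this gene, against its label, and its summed fibroblast marker TPM was also the lowest of the 6. Of the 7 fibroblast markers, 5 were lowest there, and Pdgfra and Dcn were not. It was kept in the group of its label, and whether that label is right was not tested. In bulk RNA, fewer cells of a type and less RNA per cell cannot be told apart.

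The most abundant members were shared parts of adhesions. Mean level over the 6 ventricles, in TPM, a level scaled for transcript length and sequencing depth, was highest for Itgb1 at 327, followed by Zyx (zyxin, a LIM protein of tense adhesions) at 303 and Ilk (integrin-linked pseudokinase) at 241. Of the 45 members, 12 had a mean over 100 TPM, 17 lay between 10 and 100, 11 between 1 and 10, and 5 were under 1. In the order of mean levels, each of the 44 pairs of neighbours had overlapping ranges, so the order is not resolved between neighbours. Itgb1 accounted for 53.8% of β subunit TPM (range 49.99 to 59.8%), Itgb5 (β5, a vitronectin-binding partner of αv) for 31.8% and Itgb2 (β2, shared by leukocyte integrins) for 11.1%. Among α subunits, Itga5 (the fibronectin receptor α5) made up 30.9% (range 28.7 to 32.9%) and Itga7 (the laminin receptor α7 of muscle) 26.7% (22.9 to 32.2%). Itga7 exceeded Itga5 in the library labelled Cre-negative replicate 1. The next in the order of mean shares was Itgam (αM, of macrophages and neutrophils) at 10.6%.

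**Figure D1:**
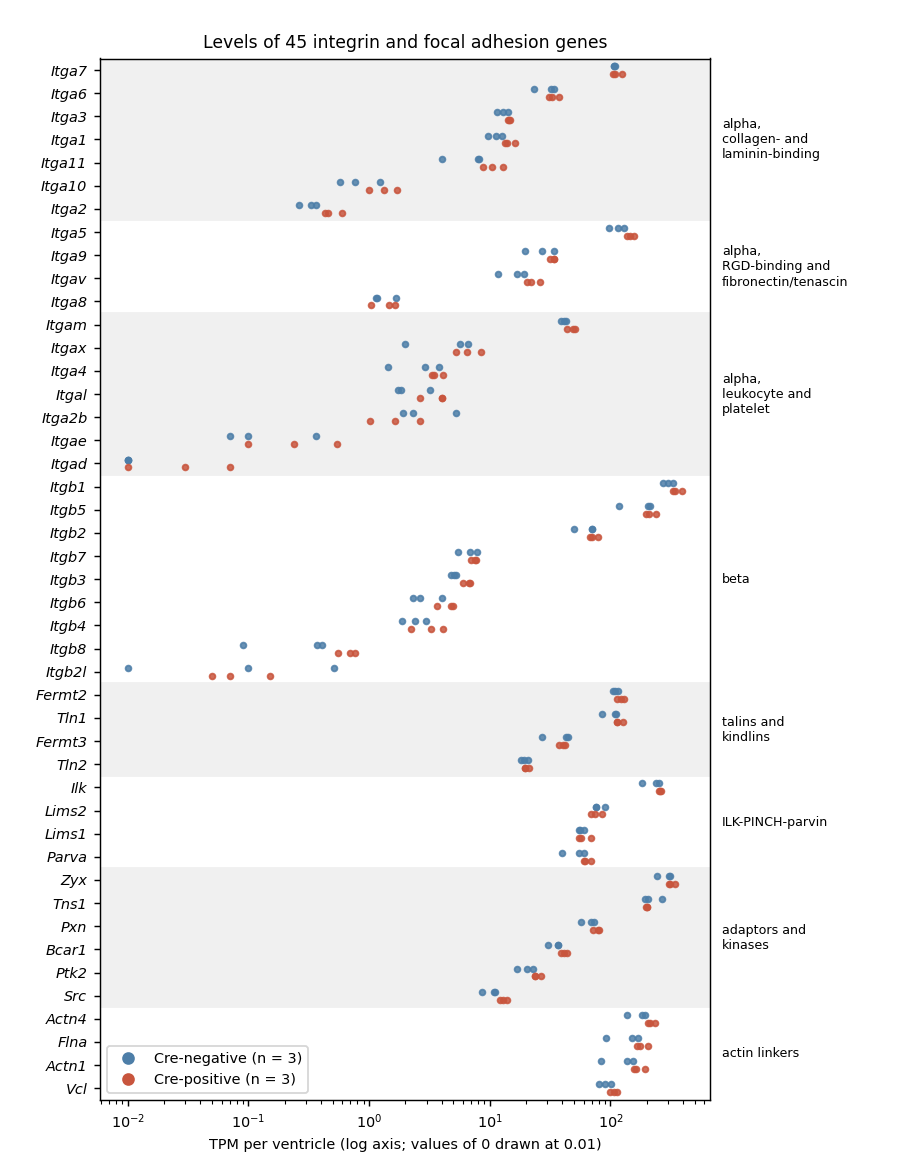
TPM (log axis) of the 45 members in each of 3 Cre-negative and 3 Cre-positive ventricles, 1 point per ventricle, grouped by role, with values of 0 drawn at 0.01. Itgb1 lies highest among the subunits at a mean of 327, and Itgad lies lowest.

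Pairs of related genes differed in level. Tln1 (talin-1) was 5.54 times Tln2 on average (range 4.70 to 6.45) in TPM, and Fermt2 was 3.03 times the blood cell kindlin Fermt3 (2.44 to 4.03). Actn4 exceeded Actn1 (α-actinin-1) by 1.35 times (1.21 to 1.65), and Lims2 exceeded Lims1 (the PINCH proteins) by 1.35 times with a range from 0.997 to 1.64. Groups overlapped for all 4 ratios. Summed α subunit TPM was 340, 395 and 410 in Cre-negative and 456, 478 and 433 in Cre-positive ventricles. Summed β subunit TPM was 454, 603 and 623 against 627, 729 and 629. Neither sum overlapped between genotypes on this scale, where the median of all genes was shifted up by 0.11 (log2), and the library labelled Cre-negative replicate 1 was lowest in both. Summed as TMM-normalised counts, the α subunits stayed apart (15378 or less against 15489 or more), but the β subunits overlapped, at 18008 in Cre-negative replicate 3 against 17383 in Cre-positive replicate 3.

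No member was called different in Cre-positive ventricles. Of the 42 members that passed the count filter, 0 had an adjusted p under 0.05 by edgeR's quasi-likelihood test with Benjamini-Hochberg adjustment over 13817 genes, where 1 gene of all (0.00724%) did. Adjusted p of the members ran from 0.714 to 0.975 by that test. DESeq2 also called 0 members, and 5 had an unadjusted p under 0.05 in it, as had 4.78% of all genes. Of fitted values, 34 of the 42 were above 0 against 51.2% of all genes, with a median of 0.15 against 0.006. The median was 0.25 for the 24 integrin subunits and 0.10 for the 18 focal adhesion proteins, or 0.12 and 0.056 without the library labelled Cre-negative replicate 1. Over all members without it, 30 of 42 were above 0 and the median of those 42 was 0.09. Leaving out 1 ventricle other than that library moved the difference of 24 of the 42 members by over 1.5 times.

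An unadjusted p under 0.05 was reached by 5 of the 42 (11.9%), all higher with Cre and all integrin subunits, where 2.85% of all genes did so upward. No member did so downward, where 2.98% of genes did. On TMM-normalised counts, groups did not overlap, with every Cre-positive ventricle higher, for 11 members (26.2%), against 7.55% of genes, and none were wholly lower, against 6.85%. On TPM, 17 of 42 members (40.5%) were wholly higher, against 15.0% of genes, with Ilk, Parva, Ptk2, Itga3, Itgam and Tln1 added. Without the library labelled Cre-negative replicate 1, 5 of 43 tested members were higher at an unadjusted p under 0.05 (3.58% of genes), and 12 of 42 were wholly higher (12.1% of genes). Without Cre-positive replicate 2, no member had such a p, against 1.76% of genes higher. The differences of the 5 were then 0.34 for Itgav, 0.21 for Itga1, 0.27 for Itgb3, 0.44 for Itga11 and 0.21 for Itga5.

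**Figure D2:**
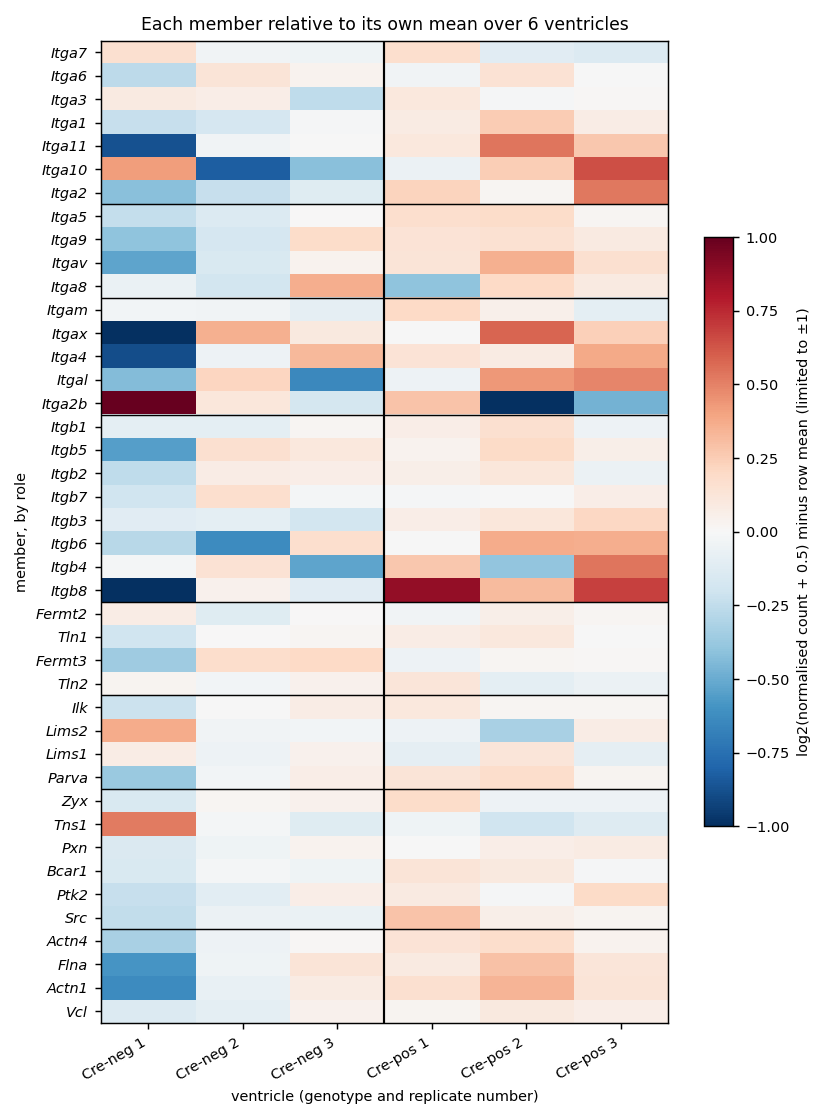
Colour gives the log2 normalised count of each of the 42 tested members minus its mean over the 6 ventricles, limited to ±1, with 1 column per ventricle and lines between roles. The library labelled Cre-negative replicate 1 is lowest for 26 of the 42, and Itga2b is the reverse, highest in that ventricle.

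Collagen-binding α subunits had fitted log2 fold changes above 0 for 4 of 4 genes, with a median of 0.52, and of 0.39 without the library labelled Cre-negative replicate 1. None passed adjustment, and Itga11 and Itga1 had an unadjusted p under 0.05. Itga11 (α11, a receptor of fibroblasts for fibrillar collagen; chromosome 9, 62677855 to 62783979) had TMM-normalised counts of 172, 306 and 314 in Cre-negative and 338, 455 and 380 in Cre-positive ventricles. The groups did not overlap, and the library labelled Cre-negative replicate 1 lay far below the others. The difference was 0.56 (95% interval 0.03 to 1.10; unadjusted p 0.042 by edgeR), and it was 0.33 without that ventricle. Itga1 (α1, on fibroblasts and vascular cells; chromosome 13, 114958079 to 115101964) had 502, 522 and 584 against 621, 701 and 619. Again all Cre-positive ventricles were higher, by 0.27 (0.04 to 0.50; p 0.025 by edgeR). Itga2 (α2) was scarce, with 9.4, 10.8 and 11.7 against 14.9, 12.9 and 18.5 and a difference of 0.53 (−0.26 to 1.33). Itga10 ranged from 22.6 to 54.1 against 38.8 to 63.5, so the groups overlapped. Its difference was 0.51 (−0.35 to 1.36) and became 0.92 without that ventricle (unadjusted p 0.022 by edgeR). It ran from 0.26 to 0.92 with 1 ventricle left out.

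Laminin-binding α subunits lay near 0, with a median of 0.06 over Itga3, Itga6 and Itga7, or 0.015 without the library labelled Cre-negative replicate 1. Itga7 had 3823, 3343 and 3332 normalised counts in Cre-negative ventricles and 3854, 3170 and 3120 in Cre-positive ones, which overlapped, with a difference of −0.05 (−0.32 to 0.22). Itga6 (α6) had 1210, 1587 and 1487 against 1420, 1603 and 1451, a difference of 0.06 (−0.21 to 0.34), and Itga3 (α3) also differed by 0.06 (−0.20 to 0.33). Without it the differences were 0.015 for Itga7, −0.048 for Itga6 and 0.12 for Itga3. The difference between collagen- and laminin-binding subunits was not tested.

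αv and the β subunits it pairs with had fitted values above 0 for 6 of 6 genes, with a median of 0.34, and for 5 of 6 with a median of 0.27 without the library labelled Cre-negative replicate 1. None passed adjustment, and Itgav and Itgb3 had an unadjusted p under 0.05. Itgav (αv, a receptor for fibronectin, vitronectin and latent TGFβ; chromosome 2, 83722303 to 83806917) had 716, 928 and 1059 normalised counts in Cre-negative and 1133, 1325 and 1154 in Cre-positive ventricles. The groups did not overlap, and the difference of 0.42 (0.07 to 0.76; unadjusted p 0.024 by edgeR) was 0.27 without the library labelled Cre-negative replicate 1. Itgb3 (β3, which pairs with αv and, on platelets, with αIIb; chromosome 11, 104608000 to 104670476) had 237, 239 and 225 against 269, 278 and 296. This gene did not have its lowest value in the library labelled Cre-negative replicate 1, and its difference was 0.26 (0.03 to 0.50; p 0.032 by edgeR) with all ventricles and 0.27 without that one.

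Of the remaining αv partners, Itgb8 (β8, which with αv binds latent TGFβ) had 2.4, 9.8 and 8.7 against 17.9, 12 and 15.6, few counts for a difference of 1.07 (−0.09 to 2.24), or 0.70 without the library labelled Cre-negative replicate 1. Itgb6 (β6, mainly of epithelium) ranged from 85.3 to 149 against 132 to 172, overlapping, with a difference of 0.47 (−0.05 to 0.99) that ran from 0.29 to 0.71 with 1 ventricle left out. The abundant Itgb5 had 3288, 5384 and 5193 against 4931, 5513 and 5029. Its difference of 0.16 (−0.27 to 0.59) was −0.04 without the library labelled Cre-negative replicate 1, where it was far lower than elsewhere. Itgb1, the partner of most α subunits here, had 9827, 9812 and 10677 against 11028, 11756 and 10140, which overlapped, and differed by 0.12 (−0.13 to 0.36).

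Itga5, the main fibronectin receptor subunit (chromosome 15, 103344286 to 103366791), had 3724, 3987 and 4392 normalised counts in Cre-negative and 4927, 4967 and 4436 in Cre-positive ventricles. Its groups were apart by a small margin, and the difference was 0.24 (0.00 to 0.48; unadjusted p 0.047 by edgeR), or 0.19 without the library labelled Cre-negative replicate 1. Itga9 (α9, a receptor for tenascin and osteopontin) had 1057, 1245 and 1581 against 1538, 1551 and 1487, with a difference of 0.24 (−0.10 to 0.57), or 0.11 without the library labelled Cre-negative replicate 1. Itga8 (α8, of fibroblasts and smooth muscle) differed by −0.08 (−0.66 to 0.51) on 43.8 to 74.8 normalised counts. This was −0.14 without that library and ran from −0.20 to 0.11 with 1 ventricle left out. Itgb4 (β4, of hemidesmosomes) differed by 0.30 (−0.34 to 0.93), which ran from 0.08 to 0.52 with 1 ventricle left out.

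**Figure D3:**
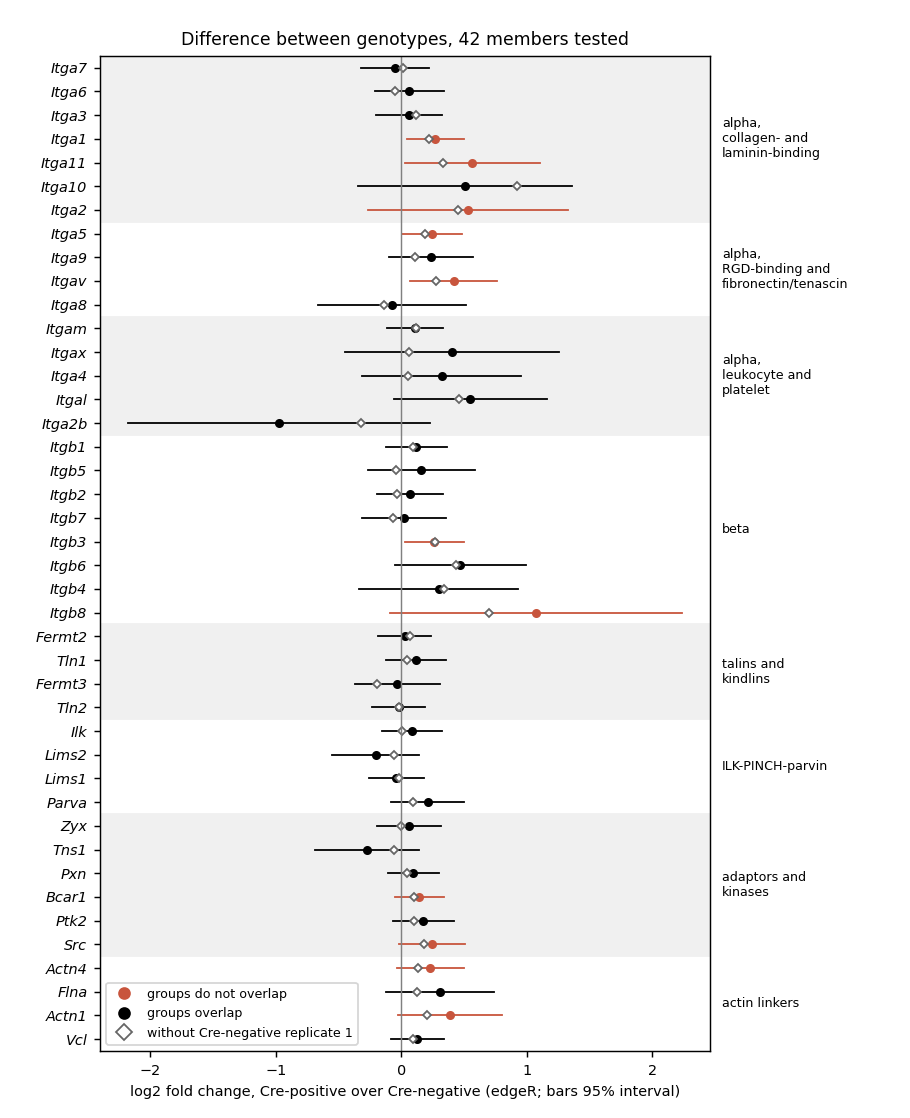
Log2 fold change of Cre-positive over Cre-negative ventricles with its 95% interval (edgeR) for the 42 members tested, by role; red marks members whose groups did not overlap and diamonds give the value without the library labelled Cre-negative replicate 1. Points lie above 0 for 34 of 42, and the intervals of 5 exclude 0 before adjustment.

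On normalised counts the leukocyte subunits overlapped between genotypes, and on TPM Itgam did not, with at most 42.8 in Cre-negative and at least 43.3 in Cre-positive ventricles. Itgam had 1569, 1557 and 1496 normalised counts in Cre-negative and 1831, 1653 and 1496 in Cre-positive ventricles, and its shared partner Itgb2 had 1225, 1531 and 1527 against 1518, 1578 and 1397. Their differences were 0.11 (−0.12 to 0.33) and 0.07 (−0.19 to 0.33), the latter −0.034 without the library labelled Cre-negative replicate 1, and that of Itgam ran from 0.03 to 0.18 with 1 ventricle left out. Itgax (αX, of dendritic cells and macrophages) had 67.0, 207 and 174 against 161, 243 and 191, and its difference of 0.40 (−0.45 to 1.26) fell to 0.06 without the library labelled Cre-negative replicate 1. Itgal (αL, of lymphocytes) had 82.3, 130 and 70.9 against 108, 151 and 156, a difference of 0.55 (−0.06 to 1.16). The 4 tested T and NK cell markers had a median of 0.58, and of 0.38 without the library labelled Cre-negative replicate 1.

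Itga4 (α4, a receptor for VCAM-1) had 125, 223 and 289 against 254, 245 and 301, with a difference of 0.32 (−0.31 to 0.96) that was 0.05 without the library labelled Cre-negative replicate 1. Its partner Itgb7 (β7) had 125, 161 and 141 against 141, 142 and 149, and differed by 0.02 (−0.31 to 0.35), or −0.068 without that ventricle. Itgae, Itgad and Itgb2l did not pass the count filter. Itgae (αE) had 0.07 to 0.54 TPM, and Itgad (αD) was listed at 0 in 4 ventricles and at 0.07 or less in the other two. Itgb2l, a relative of Itgb2, was at 0.51 TPM in the library labelled Cre-negative replicate 1 and at most 0.15 elsewhere.

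Itga2b (αIIb, which with β3 forms the platelet fibrinogen receptor) was the member with the lowest fold change. It had 156, 61.8 and 50.5 normalised counts in Cre-negative and 69.7, 24.9 and 41.0 in Cre-positive ventricles, with the library labelled Cre-negative replicate 1 far above the other ventricles. The difference of −0.98 (−2.18 to 0.22) was −0.32 without that ventricle. Summed TPM of 7 neutrophil markers was 436 in the same ventricle and 59.3 to 171 in the other 5, and that of 7 macrophage markers was 3060 there against 3986 to 4935. Of the neutrophil markers, 6 were highest there, with S100a8 and S100a9 at 152 and 203 TPM, and Csf3r was lowest there at 12.3. For 6 platelet markers the sum was 255 there, within the 223 to 332 of the rest, but Pf4 made up 211 of it. Of those 6 markers, 4 were highest in that ventricle, with Ppbp at 30.9 TPM against 9.91 to 14.9 and Gp9 at 3.52 against 0.28 to 1.78, and also Gp1ba and Gp1bb. Median differences between genotypes over these lists were −0.37 for neutrophil, −0.005 for macrophage and −0.54 for platelet markers, and 0.40, −0.15 and −0.07 without the library labelled Cre-negative replicate 1. The part of these cells in the values of leukocyte and platelet subunits was not tested.

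**Figure D4:**
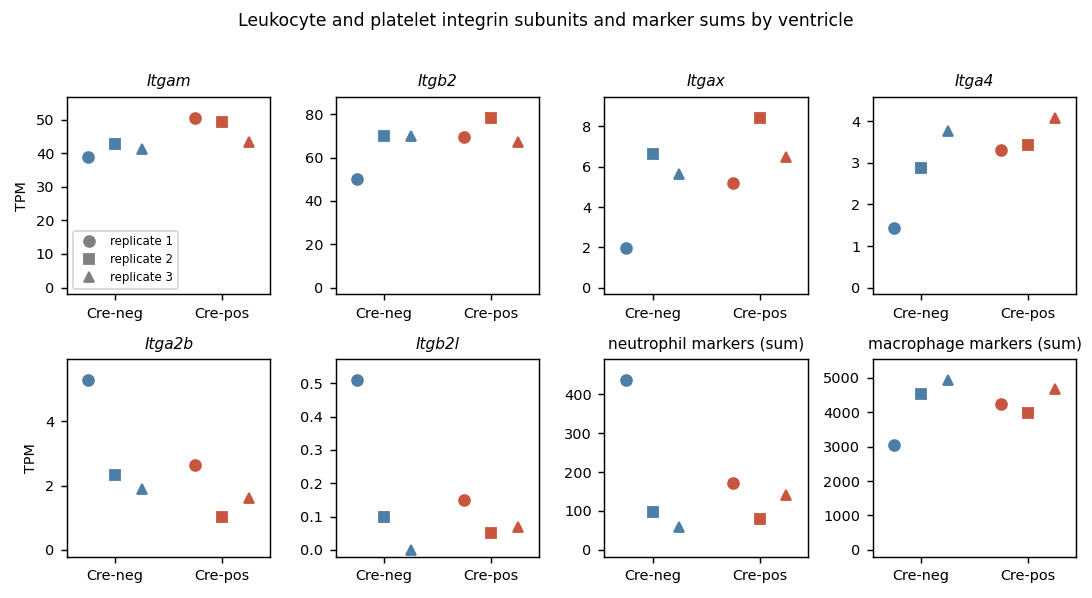
TPM of 6 leukocyte and platelet subunits and summed TPM of neutrophil and macrophage markers, 1 point per ventricle, with the shape giving the replicate number. The library labelled Cre-negative replicate 1 holds the highest Itga2b, Itgb2l and neutrophil sum (436) and the lowest Itgax, Itga4 and macrophage sum (3060).

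Actin linkers had fitted values above 0 for 4 of 4 genes, with a median of 0.27 that was 0.13 without the library labelled Cre-negative replicate 1. All 4 intervals included 0. Actn1 had 2573, 3772 and 4201 normalised counts against 4439, 5018 and 4337, without overlap and with a difference of 0.39 (−0.03 to 0.80). Actn4 had 4482, 5414 and 5655 against 6165, 6336 and 5742, a difference of 0.23 (−0.04 to 0.50). Flna had 6439, 9390 and 10588 against 10329, 11863 and 10506, which overlapped, and differed by 0.31 (−0.12 to 0.73). All 4 of these genes had their lowest value in the library labelled Cre-negative replicate 1, and Vcl differed by 0.13 (−0.08 to 0.34). Without that ventricle the differences were 0.20 for Actn1, 0.13 for Actn4 and 0.12 for Flna.

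Adaptors and kinases had a median of 0.12 with 5 of 6 above 0, or 0.073 with 4 of 6 without the library labelled Cre-negative replicate 1. Src (a kinase that signals with focal adhesion kinase) had 290, 332 and 329 normalised counts against 419, 359 and 350, without overlap, and a difference of 0.25 (−0.02 to 0.51). Bcar1 (p130Cas, a stretch-sensitive scaffold) had 819, 898 and 886 against 995, 977 and 901, also apart, but by only 0.14 (−0.05 to 0.34). Zyx had 4734, 5321 and 5416 against 5969, 5079 and 5071, overlapping, with a difference of 0.06 (−0.20 to 0.31). Tns1 (tensin-1) was highest in the library labelled Cre-negative replicate 1, with 22482, 15488 and 14428 against 15252, 13670 and 14357, and its difference of −0.28 (−0.69 to 0.14) was −0.06 without it. Ptk2 (focal adhesion kinase) and Pxn (paxillin) differed by 0.18 and 0.10, or 0.10 and 0.047 without it, and Zyx by −0.0027.

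**Figure D5:**
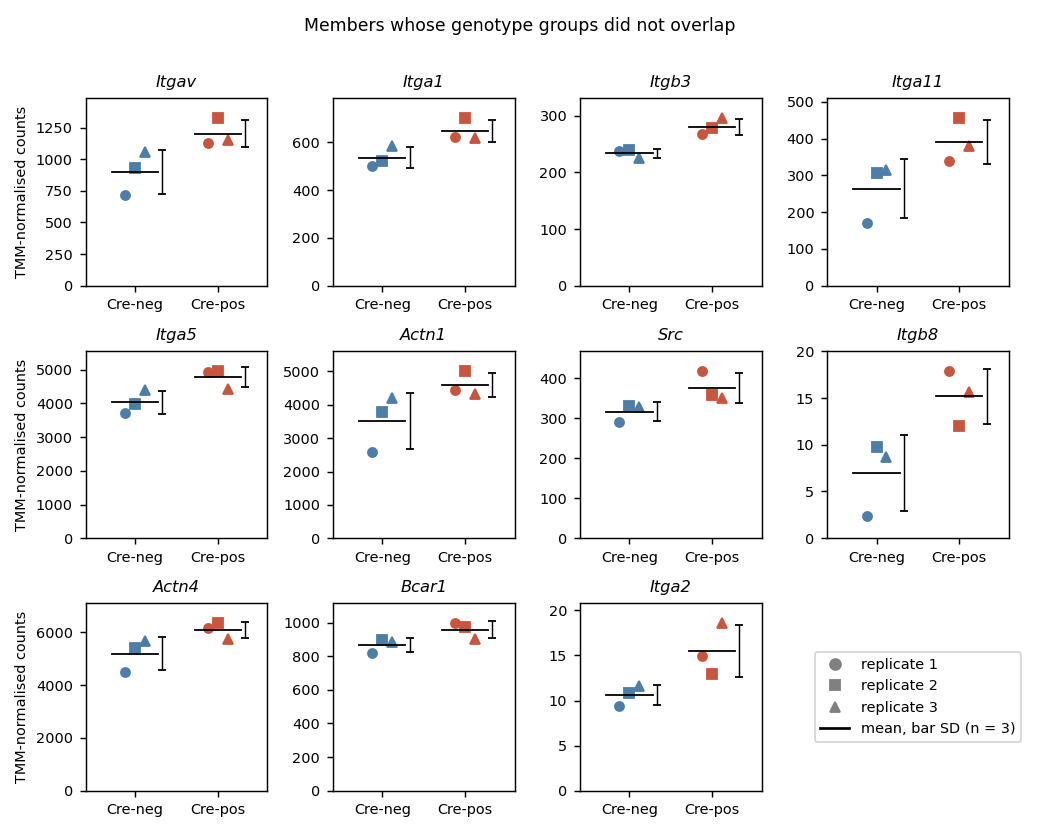
TMM-normalised counts per ventricle of the 11 members whose groups did not overlap, with the mean as a line and the SD as a bar over 3 ventricles, from axes that start at 0. Cre-positive points lie above all Cre-negative points in each panel, by a small margin in Itga5, Actn4 and Bcar1.

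The genes that activate and anchor the receptor had the role medians nearest 0. Talins and kindlins had a median of 0.001 with 2 of 4 above 0, and the ILK-PINCH-parvin genes 0.02 with 2 of 4. These medians were 0.011 and −0.0074 without the library labelled Cre-negative replicate 1. Tln1 had 6058, 6975 and 7069 normalised counts in Cre-negative and 7309, 7497 and 6943 in Cre-positive ventricles, and Fermt2 had 3068, 2680 and 2920 against 2845, 3029 and 2946. Both overlapped, with differences of 0.11 (−0.13 to 0.35) and 0.03 (−0.18 to 0.23). Ilk had 2759, 3200 and 3376 against 3441, 3238 and 3239, a difference of 0.09 (−0.15 to 0.33). Lims2 had 1314, 995 and 997 against 985, 812 and 1071, a difference of −0.20 (−0.55 to 0.14). Parva (α-parvin) differed by 0.21 (−0.08 to 0.50), Lims1 by −0.04 (−0.26 to 0.18) and Tln2 by −0.02 (−0.23 to 0.19). Without it the differences were 0.042 for Tln1, 0.066 for Fermt2, 0.0040 for Ilk, −0.063 for Lims2, 0.089 for Parva and −0.019 for Lims1. Fermt3, at −0.03 with all ventricles, was −0.20 without the library labelled Cre-negative replicate 1 (unadjusted p 0.029 by edgeR).

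Genes around the receptors gave no call either, with 0 adjusted p under 0.05 by edgeR in each of 3 lists. Integrin ligands other than collagens and laminins were above 0 for 19 of 22 tested, with a median of 0.25, and of 0.13 without the library labelled Cre-negative replicate 1. Thbs1 (thrombospondin-1, bound by αv and other integrins) had 2764, 2463 and 3287 normalised counts against 4452, 3992 and 3793, without overlap and with a difference of 0.52 ± 0.13 (SE). Fn1 (fibronectin, ligand of α5 and αv) had 17937, 31370 and 36339 against 42032, 39777 and 38365, also apart, with 0.49 ± 0.24, which was 0.24 without the library labelled Cre-negative replicate 1 where that of Thbs1 was 0.50. Vcam1, the ligand of α4, differed by 0.40 ± 0.16, and Cdh1, the ligand of αE, by 1.56 ± 0.50 on at most 23.4 normalised counts. Unadjusted p was under 0.05 by edgeR for Thbs1, Vcam1 and Cdh1 in that list, and for none downward. Postn was not in that list, and it was lower with Cre by −0.66 ± 0.27 (unadjusted p 0.044 by edgeR). Its difference was −0.94 ± 0.08 without the library labelled Cre-negative replicate 1.

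Other adhesome proteins were above 0 for 26 of 42 with a median of 0.08, and those with an unadjusted p under 0.05 by edgeR included Tes (testin) at 0.51, Limd1 at −0.34 and Arhgap26 at −0.42. Without the library labelled Cre-negative replicate 1 these were 0.32, −0.21 and −0.18, and the median of the list was 0.014. Activators and inhibitors of integrins were above 0 for 10 of 18 with a median of 0.016, and of 0.0086 without the library labelled Cre-negative replicate 1, and no gene of that list had an unadjusted p under 0.05.

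Markers of cell types moved beside the members to differing extents. All 8 cardiomyocyte markers had values below 0, with a median of −0.31, and of −0.14 without the library labelled Cre-negative replicate 1. Summed TPM of the 7 fibroblast markers was 4501 to 7248 in Cre-negative and 7245 to 8323 in Cre-positive ventricles, and their median difference was 0.12 both with and without that ventricle. Of the 4501 there, Col1a1, Col1a2 and Col3a1 gave 1549, 812 and 1109. These collagen genes differed by 0.36, 0.39 and 0.30, or 0.18, 0.21 and 0.12 without it. Pdgfra, Lum, Tcf21 and Dcn differed by 0.12, 0.10, 0.07 and −0.07, or 0.16, −0.05, −0.12 and 0.05 without it. The median was 0.05 for endothelial and 0.25 for smooth muscle and mural markers, and 0.0083 and 0.084 without it. Whether these shares of cells carry the differences in integrin subunits was not tested.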

How the data were processed

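RNA of 6 left ventricles, 3 per genotype, was analysed; the labels give the groups and call the mice siblings. The submitters' processing notes name Bowtie2 2.2.5, RSEM 1.2.12 and GRCm38.p6. The authors deposited estimated counts, not normalized (11.46% not whole), TPM values scaled by gene length and library, and FPKM values, which were not used. The authors' DESeq2 columns of fold change, p-value and q-value were not used either. Estimated counts were rounded and tested in edgeR 4.0.16 (R 4.3.3; TMM, quasi-likelihood test, minimum count 10 and total 15; 13817 genes; Benjamini-Hochberg). Alternatives used DESeq2 1.42.0 and limma 3.58.1 on log2(TPM + pseudocount), with pseudocounts of 1 and 0.1. On simulated counts, 73 of 99 genes changed 2-fold, 95 of 100 changed 4-fold and 11 of 13507 unchanged genes were called. Changes under 2-fold were not simulated, nor was a library that stood apart across genes. Members and lists were chosen with earlier results of these data known. Values in every ventricle were printed for members with an unadjusted p under 0.05, with groups that did not overlap on normalised counts, among the 2 highest of their role by TPM, or in leukocyte and platelet integrins; the others were given by range or difference. Overlap of groups was judged on normalised counts unless TPM is named. Normalised counts are counts scaled by TMM to the mean library. Reads shared between related genes were divided by the authors' counting: Itgb1, Itga4 and Actn4 had counts that were not whole in all 6 ventricles. Some results on genes around the receptors are not reported here.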

Additional observations from a re-analysis of the deposited data

How the results depend on the processing

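No member was called under any of the alternatives run. The number of genes called over the whole table was 1, and it was 5 with DESeq2's Wald test and 0 to 2 when a ventricle was left out. With the replicate number as a block it was 0, and 7 members had an unadjusted p under 0.05, as had 8.81% of all genes. The numbers were not taken as pairing the mice, since deviations of same-numbered ventricles correlated at 0.35, 0.07 and −0.03. Members with an unadjusted p under 0.05 numbered 4 to 7 under other scalings, filters and tests, against 5, which compares with 5.83% of all genes in either direction. With 1 ventricle left out they ranged from 0 without Cre-positive replicate 2 (2.68% of all genes) to 10 without Cre-negative replicate 3 (9.61%), with 3 without Cre-negative replicate 2 (6.46%) and 2 without Cre-positive replicate 3 (3.68%). Members whose groups did not overlap numbered 11 (26.2%, against 14.4% of all genes in either direction), and 13 to 22 when a ventricle was left out, a check added after seeing the data; leaving out Cre-negative replicate 3 gave 22 (52.4%, against 28.9% of all genes) and Cre-positive replicate 1 gave 19 (45.2%, against 28.1%). On TPM, also added afterwards, 17 did not overlap. On that scale the median of all genes was 0.11, and Itga7 was at 0.060 there with a pseudocount of 1 and at 0.061 with 0.1. Of 30 members printed in full, 23 kept their sign throughout. Leaving out 1 ventricle gave values from −0.023 to 0.098 for Zyx, −0.15 to 0.015 for Itga7, −0.048 to 0.14 for Itga6, −0.040 to 0.28 for Itgb5, −0.034 to 0.12 for Itgb2, −0.068 to 0.12 for Itgb7 and −0.026 to 0.066 for Fermt2. Among the members not printed in full, those that changed sign ran from −0.20 to 0.11 for Itga8, −0.042 to 0.12 for Itga3, −0.20 to 0.059 for Fermt3 and −0.092 to 0.019 for Tln2. The cause was not tested. With 3 mice per group, 37 of the 42 intervals included 0.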
